A study of Mus musculus with 6 samples.

Results

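Translation factors are the proteins that help the ribosome start, extend and finish a protein chain, and 39 of their genes were measured here. They are the genes whose single symbol in the platform annotation starts with Eif or Eef, or is Etf1 or Gspt1; a probe for Pabpc1 alone was not among those analysed here. All 39 had a usable probe, of 6146 genes with one. They fell into 5 genes of Eif2 and its exchange factor Eif2b, 1 Eif2 kinase, 11 subunits of Eif3, 9 genes of the Eif4 group, 4 genes of Eif1 and Eif5, 7 elongation genes and 2 termination genes. A further 11 probes pair an Eif or Eef symbol with another symbol and were not used here. They include the probes of Eef2 and Eif4a2, so the elongation genes lack Eef2 and the Eif4 group lacks Eif4a2. Eif4e, Eif4g1 and Eif2s1 were not among the 39 either.

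Naloxone, which blocks opioid receptors, or saline was given to male mice aged 9 weeks, and whole-brain RNA was collected 10 min later. Of the 6 BMAP cDNA arrays, 3 carried RNA of NY1DD mice, a transgenic line that models sickle cell anemia, and 3 that of C57BL/6J wild types; the saline control always came from the same strain as the treated brain. The labels do not say how many animals stand behind an array, or whether brains were pooled, so p-values measure only the spread between arrays. Each value is a log2 ratio of the channels of 1 array. It is likely naloxone (Cy5) over saline (Cy3), and in the reverse case every sign turns. The dyes were never swapped, so a dye bias that all arrays share cannot be told apart from naloxone in a strain mean, whereas the strain difference is free of it. The sample titles carry numbers that the labels do not explain and that the strains do not share. Anything these numbers mark cannot be told apart from strain.

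Translation begins when Eif2, carrying GTP and the initiator tRNA, joins the small ribosomal subunit together with Eif3. Eif4 proteins bring the capped mRNA, and Eif2b recharges Eif2 with GTP. Kinases that phosphorylate Eif2 block Eif2b, which lowers initiation in most mRNAs. The Eef1 complex then delivers each aminoacyl-tRNA, and Etf1 with Gspt1 releases the finished chain. In neurons, initiation and elongation are controlled at synapses as well as in the cell body, largely by phosphorylation, which an array of RNA does not measure.

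The promoters of the genes were searched for short motifs, which did not enter their choice. RefSeq promoter windows (GRCm38.p6, 300 bases of which 250 lie before the annotated start) were found for 31 of the 39 genes. The motif CCGGAAGT, searched on both strands and known as a site of the ETS family of transcription factors, occurred in the windows of 8 of these 31 genes (25.8%), against 1164 of 27025 genes in all (4.31%). This background is every gene with a RefSeq window. The share among the genes measured on these arrays was not counted. The letters TATAAA, also searched on both strands, occurred in 2 of the 31 (6.45%), against 15.7% of all genes. The motifs can overlap by an end base, and the forms of one motif on opposite strands can overlap as well, but no gene of the 31 held both motifs. Below are windows of 105 bases, 80 before the start and 25 from it on, on the strand of the gene, for 6 of the 8 genes and for Eif2b1, whose ratios are set against those of Eif2b2 further on and whose window lacks the motif. Capitals mark the motif.
Eef1b2, chr1:63176751-63176855, plus strand: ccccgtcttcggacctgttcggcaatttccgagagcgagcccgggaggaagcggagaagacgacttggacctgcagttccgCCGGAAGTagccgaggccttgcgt
Eif2ak1, chr5:143817712-143817816, plus strand: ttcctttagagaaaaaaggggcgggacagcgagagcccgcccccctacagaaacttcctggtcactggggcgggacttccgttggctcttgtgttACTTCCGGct
Eif2b2, chr12:85219401-85219505, plus strand: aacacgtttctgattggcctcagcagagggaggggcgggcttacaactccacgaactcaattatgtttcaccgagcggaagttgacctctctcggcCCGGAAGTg
Eif2b4, chr5:31193115-31193219, minus strand: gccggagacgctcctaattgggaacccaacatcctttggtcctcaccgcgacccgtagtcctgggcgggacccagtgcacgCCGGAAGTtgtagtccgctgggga
Eif3d, chr15:77970800-77970904, minus strand: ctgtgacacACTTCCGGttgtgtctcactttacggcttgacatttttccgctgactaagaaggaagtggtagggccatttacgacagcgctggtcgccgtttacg
Eif3l, chr15:79075143-79075247, plus strand: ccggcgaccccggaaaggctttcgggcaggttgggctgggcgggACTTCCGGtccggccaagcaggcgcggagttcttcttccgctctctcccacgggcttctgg
Eif2b1, chr5:124579107-124579211, minus strand: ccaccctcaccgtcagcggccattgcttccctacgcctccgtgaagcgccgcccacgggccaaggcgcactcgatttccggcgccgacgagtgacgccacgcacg
In Eef1b2 and Eif2b4 the motif begins 1 base after the start itself, in the same orientation as the gene. The windows of Eif4e2 and Eif5a hold it as well but are not printed here. In Eif3d and Eif3l it lies before the start and on the other strand. A match is a string of letters and not a measured site. The genes with the motif did not share a direction: in C57BL/6J, Eif2b2 had a mean log2 ratio of -0.89 and Eif5a one of 0.33.

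Usable probes numbered 11104 to 11304 per array, and no single-channel intensity was read, so the signal over background behind each ratio is unknown. Because a ratio carries no level, brain identity could not be checked against markers. The marker medians on the NY1DD arrays ran from 0.03 to 0.22 for 14 neuronal genes and from -0.20 to -0.10 for 7 astrocyte genes. On the C57BL/6J arrays they ran from -0.04 to 0.10 and from -0.02 to 0.03, so the astrocyte medians of the strains did not overlap; after a correction for probe position on the plates they did (-0.11 to 0.00 and -0.07 to 0.08). Oligodendrocyte markers (6 genes) had medians of 0.07 to 0.22 in NY1DD and -0.05 to 0.12 in C57BL/6J, and microglial markers (4 genes) of 0.10 to 0.23 and -0.25 to 0.12. Their part in the results below was not tested. In whole brain, fewer cells of a type and less RNA per cell cannot be told apart.

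None of the 39 genes passed the test in any comparison (limma across all 9685 features, Benjamini-Hochberg adjusted p under 0.05), and no feature of the whole table did (0% of 9685). The smallest limma adjusted p among the 39 was 0.489 in NY1DD, 0.283 in C57BL/6J, 0.969 between strains and 0.207 in the average of the strains. At an unadjusted p under 0.05, NY1DD gave 2 of the 39, both higher, where 8.35% of all features were past it (3.46% higher, 4.89% lower). C57BL/6J gave 1 higher and 2 lower, where the share was 6.93% (1.76% higher, 5.17% lower). The strain difference gave 1, higher in NY1DD, where the share was 4.50% (2.75% higher, 1.76% lower). The average gave 2 higher and 3 lower, where the share was 10.8% (3.40% higher, 7.37% lower). These counts lie near the background shares and are no result about the genes.

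**Figure D1:**
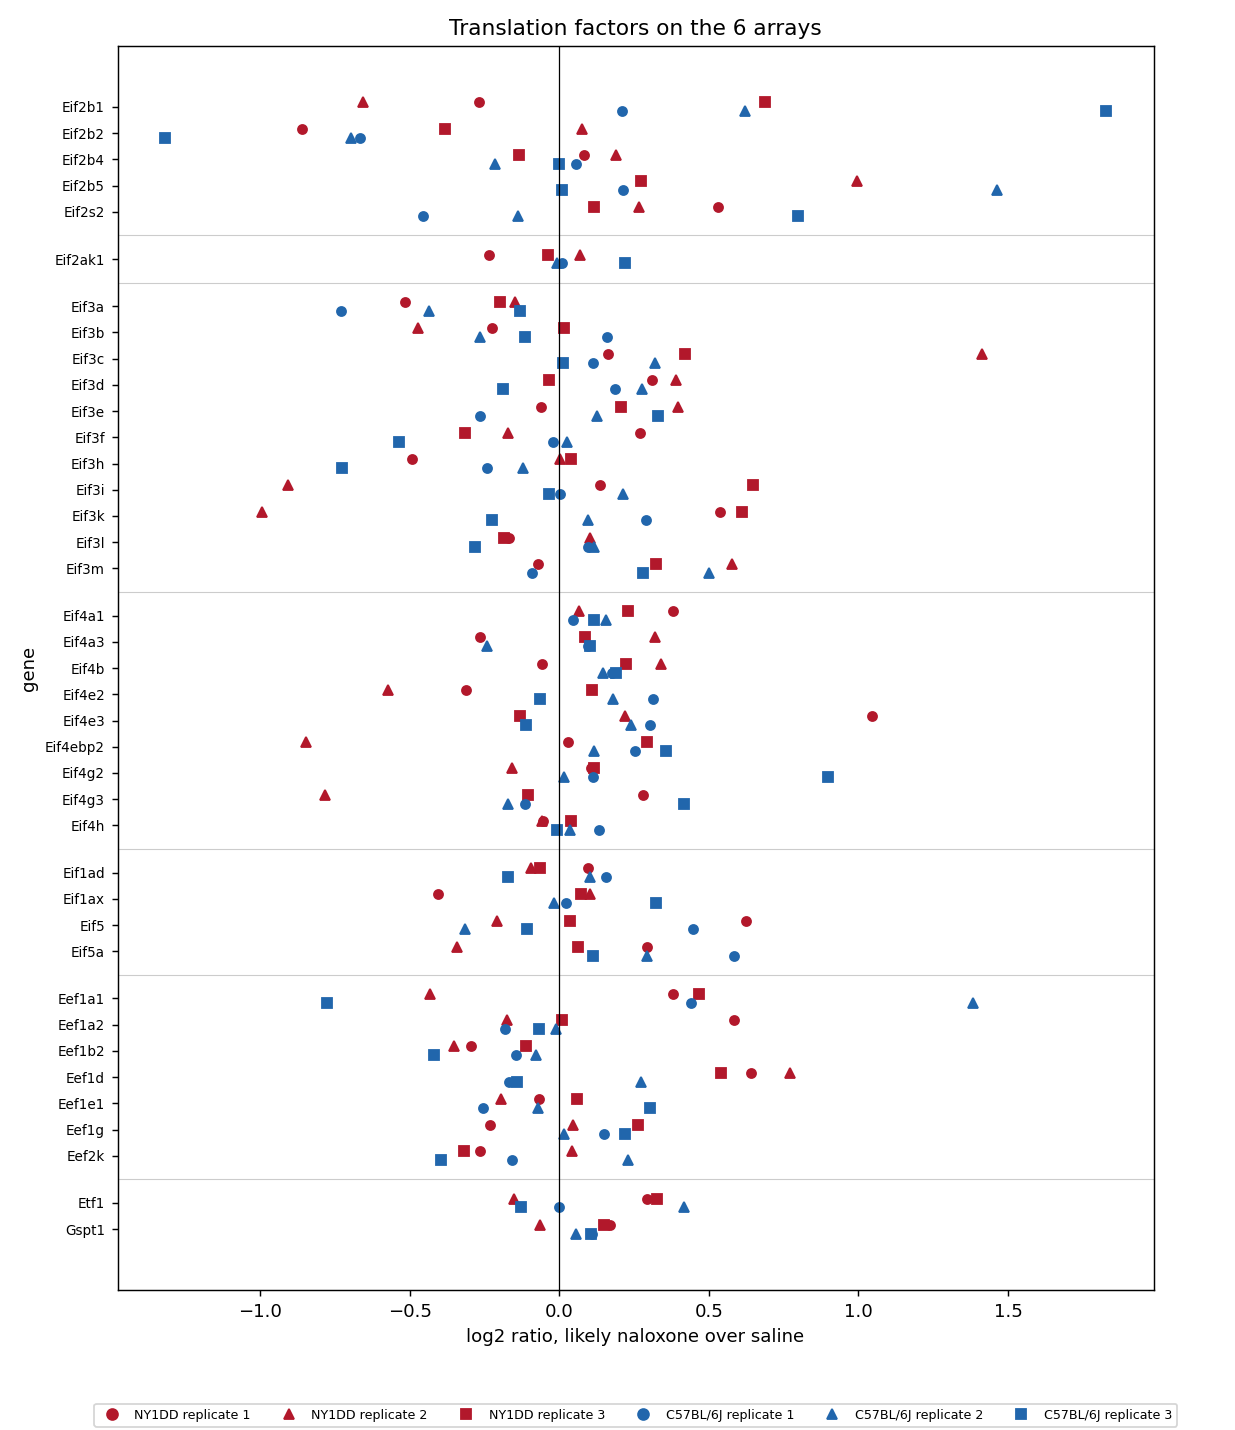
Log2 ratio (likely naloxone over saline) of each of the 39 translation factor genes on each array, red for NY1DD and blue for C57BL/6J, with 1 symbol per replicate and genes grouped by role. Most points lie near 0, the colours overlap in every gene except Eef1d, and single points stand far from the others, such as NY1DD replicate 2 for Eif3c (1.41) and Eif3k (-0.99).

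In NY1DD, 21 genes had positive and 18 negative means (median 0.02), where 47.5% of all features were positive (median -0.02). In C57BL/6J, 26 were positive and 13 negative (median 0.06), where 49.9% of all features were positive (median 0.00). The difference between strains was positive for 18 and negative for 21 (median 0.00), where 48.3% of all features were positive (median -0.01). The average of the strains was positive for 27 (median 0.03), where 48.2% of all features were. Each array in replicate order gave a median over the 39 genes of 0.06, -0.06 and 0.07 for NY1DD, then 0.10, 0.09 and -0.01 for C57BL/6J. The strains overlapped. All NY1DD arrays had one sign for 7 genes (29.6% of all features), 5 of them positive (14.3%) and 2 negative (15.4%). All C57BL/6J arrays did so for 15 (31.7%), 10 of them positive (14.4%) and 5 negative (17.3%), and 0 of the 39 had one sign on every NY1DD array and the opposite on every C57BL/6J array (2.41%). The SD over the 39 genes ran from 0.26 on NY1DD replicate 3 to 0.50 on C57BL/6J replicate 3, against 0.42 to 0.57 over all features.

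The Eif2b genes held both the highest and the lowest C57BL/6J mean of the 39. Eif2b2, the beta subunit of the exchange factor, was -0.67, -0.70 and -1.32 on C57BL/6J replicates 1 to 3, a mean of -0.89 (SD 0.37, SE 0.22, n = 3, limma adjusted p = 0.283). The NY1DD arrays read -0.86, 0.08 and -0.38, a mean of -0.39 (SD 0.47, n = 3). It was negative on 5 of 6 arrays, and its average over the strains was -0.64 (SE 0.15, limma adjusted p = 0.207, the smallest of the 39 in any comparison). Eif2b1, the alpha subunit, through which the exchange factor senses phosphorylated Eif2, was 0.21, 0.62 and 1.83 on the C57BL/6J arrays, a mean of 0.89 (SD 0.84, SE 0.35, n = 3, limma adjusted p = 0.687). Without C57BL/6J replicate 3 that mean was 0.42. On the NY1DD arrays Eif2b1 was -0.27, -0.66 and 0.69, a mean of -0.08 (SD 0.69, n = 3), so the strains overlapped. The strain difference was -0.97 for Eif2b1 (SE 0.50, limma adjusted p = 0.969), the lowest of the 39, and 0.51 for Eif2b2 (SE 0.31, limma adjusted p = 0.969). Without C57BL/6J replicate 3 these differences were -0.49 and 0.29. Without NY1DD replicate 2 that of Eif2b2 was 0.27, and over all arrays left out in turn they ran from -1.35 to -0.49 and from 0.27 to 0.74.

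The other Eif2 genes varied as much between arrays of a strain as between strains. Eif2b5, the catalytic subunit of the exchange factor, was 1.00 and 0.27 on NY1DD replicates 2 and 3, with no value on replicate 1, so that its NY1DD mean rests on 2 arrays, and 0.21, 1.46 and 0.01 in C57BL/6J. It was above 0 on every array that measured it, from barely to well above. Eif2b4, the delta subunit, stayed between -0.21 and 0.19 on all arrays. Eif2s2, the beta subunit of Eif2 itself, was 0.53, 0.27 and 0.12 in NY1DD and -0.45, -0.14 and 0.80 in C57BL/6J; its NY1DD values all lie inside the C57BL/6J range. Eif2ak1, the Eif2 kinase that haem holds inactive, was -0.23, 0.07 and -0.04 in NY1DD and 0.01, -0.01 and 0.22 in C57BL/6J, with a strain difference of -0.14 (SE 0.19).

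Eif3 is the largest initiation factor, a scaffold that holds the small subunit and recruits the mRNA. Its 11 measured subunits did not share a direction: 5 were positive and 6 negative in NY1DD, 6 and 5 in C57BL/6J. Eif3a, the large subunit at the core of the scaffold, was -0.52, -0.15 and -0.20 in NY1DD and -0.73, -0.43 and -0.13 in C57BL/6J. It was below 0 on all 6 arrays, with a C57BL/6J mean of -0.43 (SE 0.16, n = 3, limma adjusted p = 0.640) and an average of -0.36 (SE 0.12, limma adjusted p = 0.325). One of its 2 probes was above 0 on C57BL/6J replicate 3, at 0.32, where the other was -0.58. Of all features, 7.37% kept one sign on all arrays of both strains, and 5 of the 39 genes did: Eif2b5 (on the 5 arrays that measured it), Eif3c and Eif4a1 above 0, Eif3a and Eef1b2 below. After correction for the well position of each probe, described further on, Eif3c, Eif4a1 and Eef1b2 no longer kept one sign. Eif2b2 and Eif3m then did: Eif2b2 was below 0 on every array, at -0.03 on NY1DD replicate 2. Eif3m was above 0 on every array, at 0.004 on C57BL/6J replicate 1. Eif3c, another core subunit, was 0.16, 1.41 and 0.42 in NY1DD, a mean of 0.67 (SD 0.66, SE 0.24, n = 3, limma adjusted p = 0.579), and 0.11, 0.32 and 0.01 in C57BL/6J, a mean of 0.15 (SD 0.16, n = 3). It was above 0 on all 6 arrays, but after the well position correction it was -0.17 on NY1DD replicate 1 and -0.19 on C57BL/6J replicate 3. Without NY1DD replicate 2 its NY1DD mean was 0.29.

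The remaining Eif3 subunits had strain means between -0.36 and 0.28. Eif3h and Eif3m, both of the part of the complex built from PCI and MPN domain proteins, lay at the ends of that range. Eif3h was -0.49, 0.00 and 0.04 in NY1DD and -0.24, -0.12 and -0.73 in C57BL/6J. Eif3m was -0.07, 0.58 and 0.32 in NY1DD and -0.09, 0.50 and 0.28 in C57BL/6J. Among the Eif3 subunits, the array with the most scatter was NY1DD replicate 2, where Eif3i and Eif3k were -0.91 and -0.99 while Eif3c was 1.41. On NY1DD replicates 1 and 3 Eif3i was 0.14 and 0.65, and Eif3k was 0.54 and 0.61. After the well position correction, NY1DD replicate 2 read -0.18 for Eif3i and -0.07 for Eif3k, and 1.88 for Eif3c.

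The Eif4 group binds the mRNA cap, unwinds the leader and links cap to ribosome. In C57BL/6J 8 of its 9 genes were positive, and in NY1DD 5 of 9. Eif4a1, the RNA helicase, was above 0 on every array, at 0.38, 0.07 and 0.23 in NY1DD and 0.05, 0.15 and 0.12 in C57BL/6J. After the well position correction its average over the strains went from 0.17 to 0.01, and its C57BL/6J mean was -0.02. Eif4b, which stimulates that helicase, was -0.06, 0.34 and 0.22 in NY1DD and 0.18, 0.15 and 0.19 in C57BL/6J, with an SD of 0.02 between the C57BL/6J arrays. Its 2 probes did not track each other: on NY1DD replicate 1 they read -0.59 and 0.48. Eif4h, a relative of Eif4b, stayed between -0.06 and 0.13 on all arrays.

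Cap-binding proteins and their inhibitor spread more widely in NY1DD, and so did features in general (median SD 0.32, against 0.25 in C57BL/6J). Eif4e2, a cap-binding protein that can repress translation, was -0.31, -0.57 and 0.11 in NY1DD and 0.31, 0.18 and -0.06 in C57BL/6J, a strain difference of -0.40 (SE 0.24, limma adjusted p = 0.969). Its 2 probes disagreed in NY1DD, with means of 0.15 and -0.67. After the well position correction Eif4e2 was -0.35, -0.29 and -0.07 in NY1DD and 0.26, 0.12 and -0.18 in C57BL/6J. Its NY1DD arrays then no longer spread more widely. Eif4ebp2, the main brain inhibitor of Eif4e, was 0.03, -0.85 and 0.29 in NY1DD and 0.25, 0.12 and 0.36 in C57BL/6J, a strain difference of -0.42 (SE 0.31). Both of its probes were lowest on NY1DD replicate 2, at -1.05 and -0.64. Eif4e3 was 1.05, 0.22 and -0.13 in NY1DD, which enclosed its C57BL/6J values of 0.30, 0.24 and -0.11. Eif4g3, a scaffold that links cap and helicase, had an NY1DD mean of -0.20 (SD 0.54) and a C57BL/6J mean of 0.04 (SD 0.32), each over 3 arrays. Eif4a3, the helicase of the exon junction complex, stayed between -0.27 and 0.32 on all arrays.

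Eif4g2, a scaffold that supports initiation without the cap-binding protein, was the best measured gene of the group, with 4 probes. Averaged over them it was 0.11, -0.16 and 0.12 in NY1DD and 0.11, 0.02 and 0.90 in C57BL/6J. C57BL/6J replicate 3 stood above the other 5 arrays on each probe: the probes read 1.03, 0.87, 0.81 and 0.88 there, and between -0.58 and 0.30 elsewhere. Among 53 genes with at least 4 usable probes on 6 arrays (318 combinations), all probes of a gene were past 1.5-fold above 0 on an array in 2 combinations, of which Eif4g2 was 1, and past 1.5-fold below 0 in 0. With replicates 1 and 2 of C57BL/6J near 0, the strain mean was 0.34 (SD 0.48, n = 3), and the strain difference of -0.32 (SE 0.28, limma adjusted p = 0.969) was within the spread between arrays.

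**Figure D2:**
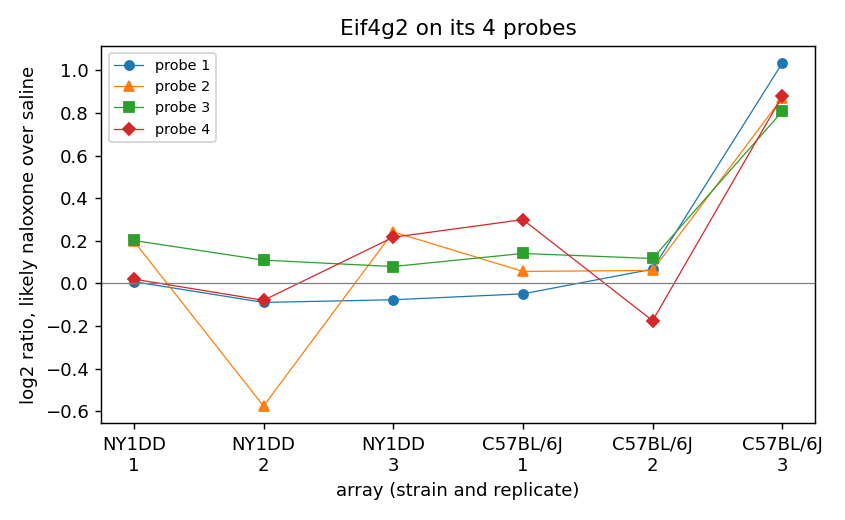
Log2 ratio (likely naloxone over saline) of Eif4g2 on each of its 4 cDNA probes, by array; lines join the values of a probe only to guide the eye. All 4 probes lie between 0.81 and 1.03 on C57BL/6J replicate 3 and between -0.58 and 0.30 on the other arrays.

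The smaller initiation factors showed little. Eif1ad and Eif1ax had strain means between -0.08 and 0.11. Eif5, which triggers GTP hydrolysis by Eif2, was 0.62, -0.21 and 0.03 in NY1DD and 0.45, -0.31 and -0.11 in C57BL/6J, and its 2 probes went opposite ways on C57BL/6J replicate 3, at -1.16 and 0.95. Eif5a, the hypusine-carrying factor that helps stalled ribosomes, was 0.29, -0.34 and 0.06 in NY1DD and 0.58, 0.30 and 0.11 in C57BL/6J, a strain difference of -0.33 (SE 0.24, limma adjusted p = 0.969). One probe each of Eif1ax and Eif5a had too few values and was left out. With no filter on missing values the second Eif5a probe, at 0.79 and 2.05 on NY1DD replicates 2 and 3, came back and the Eif5a strain difference turned to 0.30.

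Among the elongation factors, Eef1d was the 1 gene of the 39 whose NY1DD arrays all lay apart from the C57BL/6J arrays. Eef1d, the delta subunit of the complex that recharges Eef1a with GTP, was 0.64, 0.77 and 0.54 on NY1DD replicates 1 to 3, a mean of 0.65 (SD 0.12, SE 0.15, n = 3, limma adjusted p = 0.489). The C57BL/6J arrays read -0.17, 0.27 and -0.14, a mean of -0.01 (SD 0.25, n = 3). The strain difference was 0.66 (SE 0.21, limma unadjusted p = 0.0147, adjusted p = 0.969), the highest of the 39, and it did not pass over all features. It stayed between 0.59 and 0.81 when each array was left out in turn, with a limma unadjusted p of up to 0.0546, and was 0.63 after the well position correction. Of all features, 10.2% had strains that did not overlap: 5.62% had the NY1DD arrays above and 4.58% below those of C57BL/6J, against 1 and 0 of the 39. Eef1d rests on 1 probe.

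The partners of Eef1d in the same complex did not move with it. Eef1b2, the other nucleotide exchange subunit, was -0.30, -0.35 and -0.11 in NY1DD and -0.15, -0.08 and -0.42 in C57BL/6J. It was below 0 on all 6 arrays, with an average of -0.23 (SE 0.10, limma adjusted p = 0.458) and a strain difference of -0.04 (SE 0.20). Its 2 probes were positive on 1 C57BL/6J array each, at 0.27 on replicate 2 and 0.01 on replicate 3. Eef1g, the gamma subunit that anchors the complex, was -0.23, 0.05 and 0.26 in NY1DD and 0.15, 0.02 and 0.22 in C57BL/6J, so its strains overlapped as well.

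Eef1a1 and Eef1a2 are close copies that carry the tRNA, the latter being the form of mature neurons and muscle, and a cDNA probe of one may bind RNA of the other. Eef1a1 was 0.38, -0.43 and 0.47 in NY1DD and 0.44, 1.38 and -0.77 in C57BL/6J, an SD of 1.08 and the widest C57BL/6J spread of the 39. Eef1a2 was 0.58, -0.17 and 0.01 in NY1DD and -0.18, -0.01 and -0.07 in C57BL/6J. Its 2 probes had strain differences of -0.05 and 0.50. Eef1e1, a scaffold of the tRNA synthetase complex, and Eef2k, the kinase that inhibits Eef2, had strain differences of -0.06 (SE 0.22) and -0.07 (SE 0.23). For termination, Etf1, which reads stop codons, was 0.29, -0.15 and 0.33 in NY1DD over 4 probes, and 0.00, 0.42 and -0.13 in C57BL/6J. Gspt1, the GTPase that works with it, was 0.17, -0.06 and 0.15 in NY1DD and 0.11, 0.06 and 0.11 in C57BL/6J, with a strain difference of -0.01 (SE 0.18).

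**Figure D3:**
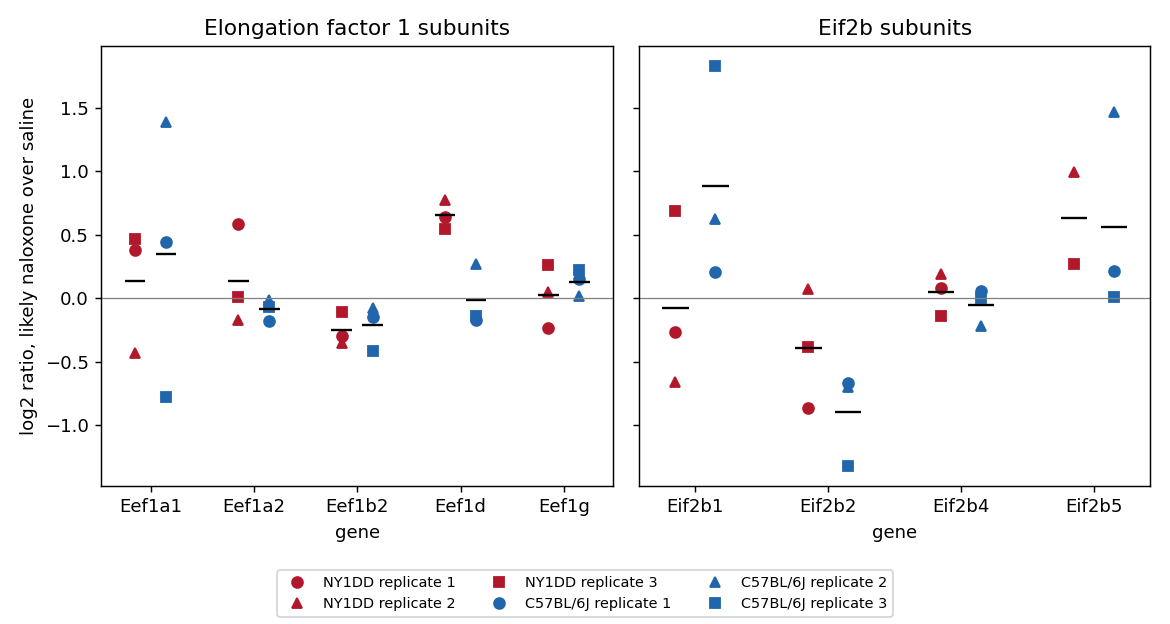
Log2 ratio (likely naloxone over saline) of the measured subunits of elongation factor 1 (left) and of Eif2b (right) on each array, red for NY1DD and blue for C57BL/6J, with bars at strain means. Eef1d alone has its NY1DD arrays (0.54 to 0.77) above those of C57BL/6J (-0.17 to 0.27), and Eif2b1 and Eif2b2 have C57BL/6J means of 0.89 and -0.89.

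Set side by side, the groups had means of array medians between -0.09 and 0.12. The median of the Eif2 and Eif2b genes was -0.09, 0.19 and 0.12 in NY1DD, a mean of 0.07 (SD 0.15, n = 3), and in C57BL/6J the mean was -0.02 (SD 0.10, n = 3). Eif3 had means of -0.01 (SD 0.05, n = 3) and 0.00 (SD 0.12, n = 3). The elongation genes had -0.06 (SD 0.12, n = 3) and -0.09 (SD 0.10, n = 3). Without Eef1e1 and Eef2k, the 5 Eef1 complex genes had array medians of 0.38, -0.17 and 0.26 in NY1DD, a mean of 0.16 (SD 0.29, n = 3). In C57BL/6J these were -0.15, 0.02 and -0.14, a mean of -0.09 (SD 0.09, n = 3), so the strains overlapped. Eif4 was the steadiest group in C57BL/6J, with array medians of 0.13, 0.12 and 0.12, a mean of 0.12 (SD 0.01, n = 3). In NY1DD its medians were 0.03, -0.06 and 0.11, a mean of 0.03 (SD 0.08, n = 3), all below the C57BL/6J medians. The margin was narrow, from 0.111 on NY1DD replicate 3 to 0.117 on C57BL/6J replicate 2. These medians carry no test, because the genes were chosen with earlier results of these data known. After the well position correction the Eif4 medians were -0.02, -0.12 and 0.04 in NY1DD and 0.19, 0.06 and 0.17 in C57BL/6J. Without the inhibitor Eif4ebp2 and the exon junction helicase Eif4a3, 7 Eif4 genes remain. Their corrected medians were 0.014, -0.123 and 0.014 in NY1DD and 0.181, 0.073 and 0.011 in C57BL/6J, so the strains overlapped.

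**Figure D4:**
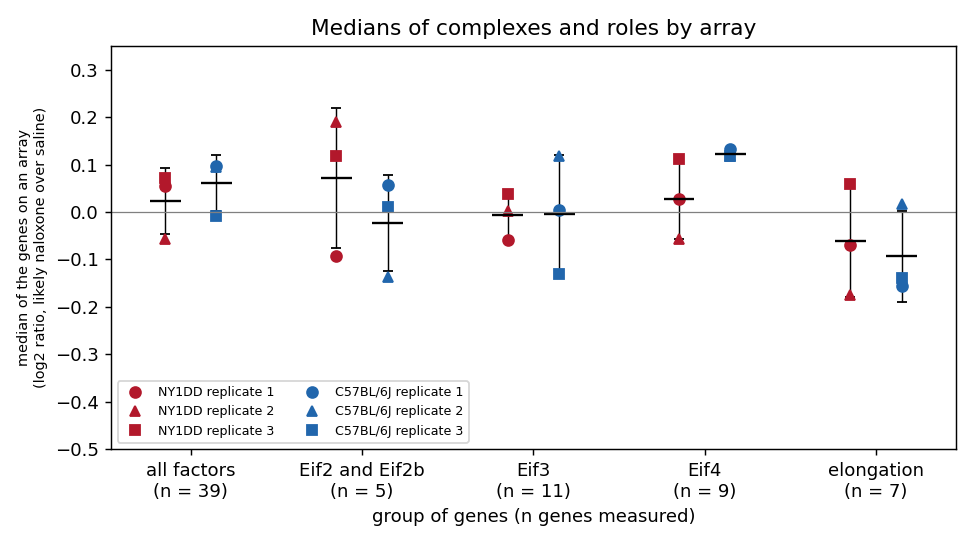
Median log2 ratio (likely naloxone over saline) of each group of genes on each array, red for NY1DD and blue for C57BL/6J; bars are means over 3 arrays and whiskers 1 SD. The strains overlap in each group except Eif4, where the C57BL/6J arrays lie at 0.12 to 0.13 and the NY1DD arrays at -0.06 to 0.11.

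Where a gene had several probes, they often disagreed. Of the 14 translation factor genes with several usable probes, all probe means had the same sign in 8 in NY1DD (57.1%, against 47.1% of 1311 genes with several probes) and in 10 in C57BL/6J (71.4%, against 44.1%). For the strain difference it was 4 of 14 (28.6%, against 46.6%). The 4 probes of Etf1 differed by strain by 0.20, 0.11, 0.33 and -0.41.

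The plate position of the probes touched these genes more than most. Of their 57 usable probes, 10 lie in plate column 12 (17.5%, against 8.32% of all probes), among them those of Eif2b1, Eif2b5, Eif3h, Eif3k, Eif4g3 and Eif5a and 1 probe each of Eef1b2, Eef1e1, Eif3b and Eif4ebp2. On NY1DD replicate 2 the median of all probes in that column was -0.47, that of the 10 probes was -0.63, and that of the other 47 was 0.02. On the other 5 arrays the column median ran from 0.02 to 0.09. Well position accounted for 26.8% of the variance between probes there, against 2.33% to 10.5% elsewhere. Subtracting from each array the median of each well position gave NY1DD replicate 2 values of -0.61 for Eif2b1, 1.92 for Eif2b5, -0.31 for Eif4g3 and -0.53 for Eif4ebp2.

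**Figure D5:**
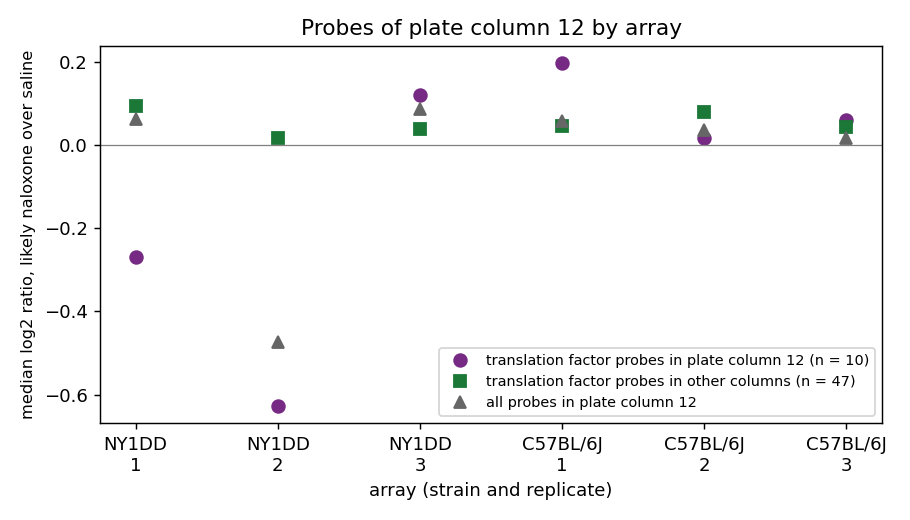
Median log2 ratio (likely naloxone over saline) by array of the 10 translation factor probes in plate column 12, of the 47 in other columns, and of all probes in column 12. On NY1DD replicate 2 both sets in column 12 are low (-0.63 and -0.47) while the other translation factor probes are at 0.02.

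Other genes of protein synthesis gave the following counts, with 0 past the adjusted threshold in any comparison. Positive shares over all features were 47.5% in NY1DD, 49.9% in C57BL/6J and 48.3% in the strain difference. Of 14 other cytosolic translation factors, 7 were positive in NY1DD and 10 in C57BL/6J, with strain differences positive for 4 (median -0.12). Larp4, an RNA-binding protein that works with poly(A)-binding protein, differed by 0.70 between strains (SE 0.28, limma adjusted p = 0.969). Its NY1DD arrays lay above, as in 1 of the 14 genes and 5.62% of all features. Of 17 aminoacyl-tRNA synthetase genes, 5 were positive in NY1DD and 11 in C57BL/6J (strain difference median -0.14). Gars, which charges glycine tRNA, differed by -0.38 (SE 0.22, limma adjusted p = 0.969). Its NY1DD arrays lay below, as in 1 of the 17 genes and 4.58% of all features.

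Lists of genes that act on Eif2 and Eif4 from upstream, or respond to them, were counted as well. Of 14 genes of mTOR signalling, 4 were positive in NY1DD and 3 in C57BL/6J (medians -0.09 and -0.12), and 6 in the strain difference. Mknk2, a kinase of Eif4e, was 0.51 and 2.15 on NY1DD replicates 1 and 3, with no value on replicate 2, and -0.04, -2.08 and 1.04 in C57BL/6J, a strain difference of 1.69 (SE 0.95, limma adjusted p = 0.969). Of 9 genes of the integrated stress response, the program that follows Eif2 phosphorylation, 2 were positive in each strain (medians -0.14 and -0.10), and 4 in the strain difference. Of all features, 47.5% were positive in NY1DD, 49.9% in C57BL/6J and 48.3% in the strain difference. Ddit3, a transcription factor of that program, was -0.20 in NY1DD and -0.77 in C57BL/6J (difference 0.56, SE 0.25, limma adjusted p = 0.969). Its NY1DD arrays lay above, as in 1 of the 9 genes and 5.62% of all features. Of 4 mitochondrial translation factors, 1 was positive in NY1DD and 0 in C57BL/6J (medians -0.35 and -0.17). Of 39 cytosolic ribosomal proteins, 30 had a positive strain difference (76.9%, median 0.18), against 48.3% of all features. Among the 39 translation factors it was 18, with a median of 0.00. The array medians of the ribosomal proteins were 0.38, 0.04 and 0.11 in NY1DD and -0.20, 0.15 and -0.01 in C57BL/6J. The strains thus overlapped.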

How the data were processed

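The 6 2-colour BMAP cDNA arrays comprise 3 of NY1DD and 3 of C57BL/6J mice. The deposited values are natural log ratios of the 2 channels of an array. The base was read from the values, whose lower limit is the natural log of 0.01. Cy5 was naloxone and Cy3 saline per the labels. Background correction, normalisation, filter: not given in the sources used here.

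The 30 control spots were left out, values at the lower limit were treated as missing, and the rest were converted to log2. Probes measured on fewer than 2 arrays of either strain were dropped. The median of every array was then subtracted, and the probes of a gene, by single symbol, were averaged, which gave 9685 features (6146 of them genes) from 11340 probes. All 39 translation factors matched a RefSeq gene number (GRCm38.p6) with the same symbol.

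Strain means were fitted with limma 3.58.1 under R 4.3.3, and the 4 comparisons are NY1DD against 0, C57BL/6J against 0, their difference and their average. All tests were two-sided with Benjamini-Hochberg adjustment over all features and a threshold of 0.05. SEs are those of limma; an SD is taken over the arrays. The steps were tested on simulated data. The genes, lists and alternatives were chosen with earlier results of these data known. Array values are given for genes with an unadjusted p under 0.05, for genes whose strains do not overlap, for core members of each complex, and for further genes where they show the spread; in each other list the genes named are among the 4 with the smallest p between strains. Alternatives covered the lower limit, centring, filters, scaling, well position, probe averaging, the replicate number as a block, and each array left out.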

Additional observations from a re-analysis of the deposited data

How the results depend on the processing

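No translation factor passed the adjusted threshold under any of the 14 alternatives. No direction of the 6 genes with an unadjusted p under 0.05 turned in the comparison concerned. Eef1d and Eif3c had one sign on all NY1DD arrays, Eif2b1, Eif2b2 and Eif3a on all C57BL/6J arrays, and Eef1b2 on all 6. Leaving out an array could therefore hardly turn those strain means. The genes were also picked by p in these data, so the kept direction is no measure of stability. For Eef1d the limma adjusted p of the strain difference ran from 0.815 to 1.00 over the alternatives, and for Eif2b2 in C57BL/6J from 0.0911 to 0.952. Of 543 strain differences of single genes under an alternative, 495 kept their sign and 2 moved by more than the spread between arrays. These were Eif5a, from -0.33 to 0.30 with no filter on missing values, and Eif4h, from -0.08 to -0.16 with the well position correction. Leaving out an array can hardly move a difference by that much, whatever the values, because the array left out is part of that spread. The replicate block leaves the difference of a gene measured on every array unchanged. Those alternatives could thus hardly add to the count of 2, which is no measure of stability. The median of Eif4 in C57BL/6J, 0.14 in the fit, was 0.17 without centring, 0.18 with arrays scaled to one spread, 0.11 with the well position correction and 0.10 to 0.14 with an array left out. The median of Eif3 in NY1DD went from -0.04 to 0.14 with the well position correction, and to between -0.041 and 0.073 with an array left out, the highest without NY1DD replicate 2. With scaled arrays, 2 genes had an unadjusted p under 0.05 between strains and 2 had arrays that did not overlap, in place of 1 and 1.

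The replicate number does not pair the arrays (correlations of -0.0666, 0.0508 and 0.0197 between same-numbered deviations); with a replicate block, 2 genes had an unadjusted p under 0.05 between strains, and 0 passed.

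With an array left out, counts of unadjusted p under 0.05 ran from 1 to 3 in C57BL/6J (1 without C57BL/6J replicate 2), from 1 to 3 between strains (3 without NY1DD replicate 3) and from 2 to 5 in the average (2 without C57BL/6J replicate 1 or 2). Genes whose arrays did not overlap numbered 1 to 7, 7 of them without NY1DD replicate 3. Medians in this section are taken over the fitted values of the genes, not over the values on each array. With all arrays, that of elongation was 0.03 in NY1DD and -0.01 in C57BL/6J, where the means of array medians were -0.06 and -0.09. That of Eif2 and Eif2b was 0.05 and 0.07, where they were 0.07 and -0.02. Medians with an array left out ran as follows: Eif2 and Eif2b from -0.13 to 0.09 in NY1DD, from -0.079 to 0.33 in C57BL/6J, from -0.025 to 0.26 between strains and from 0.0045 to 0.32 in the average; elongation from -0.092 to 0.025 in NY1DD, from -0.15 to 0.067 in C57BL/6J and from -0.11 to 0.10 between strains; Eif4 from 0.0070 to 0.13 in the average and from -0.025 to 0.087 in NY1DD; Eif3 from -0.065 to 0.11 in C57BL/6J, from -0.0084 to 0.15 between strains and from -0.063 to 0.068 in the average; elongation from -0.037 to 0.071 in the average; all 39 genes from -0.024 to 0.085 in NY1DD and from -0.053 to 0.018 between strains. The cause was not tested. Signal over background is unknown and 3 arrays per strain limit the precision. Arrays of one strain agreed little more than arrays of different strains. Over all features, correlations ran from 0.0194 to 0.191 within NY1DD and from 0.124 to 0.148 within C57BL/6J. Between strains they ran from -0.0701 to 0.178.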
